A study of Mus musculus with 2 samples.

Results

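CTCF-bound regions of double-positive (CD4+CD8+) mouse thymocytes were not spread evenly, and 38 megabases held the most of them. They were found by joining adjoining 25-bp windows of the deposited peak track into regions, counting the regions of the 19 autosomes by their midpoint in fixed bins of 1 Mb, and keeping the bins with 80 or more, called crowded bins here. These 38 of 2481 bins (1.53%) held 3476 regions, 6.9% of the 50386 on the autosomes and part of 51661 listed in all. For contrast, 498 bins with 10 to 20 regions (20.1% of bins, 7369 regions) served as comparison bins. The number of regions chose the bins and is given as a description only.

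The data came from 1 anti-CTCF chromatin immunoprecipitation library (Millipore antibody, chromatin fixed with 1% formaldehyde for 10 minutes), sequenced from thymocytes of C57BL/6 mice aged 4 to 8 weeks. All mice lacked Rag1, a recombinase that cuts antigen receptor genes, and carried a rearranged T cell receptor beta transgene, which lets cells pass to the double-positive stage without it. Their other antigen receptor genes are thus in the unrearranged state, which differs from that of normal double-positive cells. The sources used here give neither the transgene's promoter nor the number of mice pooled, and the matching input library of the same mice was not analysed here. The cell type could not be checked against markers, since the file holds positions only. With 1 library there was no replicate and no test, and each comparison is between parts of the genome within it.

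CTCF, a DNA-binding protein with an array of zinc fingers, recognises a long motif and, with the ring-shaped cohesin complex, stops loop extrusion and marks the edges of chromatin domains. Its sites are known to be more frequent where genes are dense, at promoters and between neighbouring genes, and sparse in gene-poor stretches. In thymocytes CTCF is known for shaping the antigen receptor loci, where distant gene segments have to be brought together.

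The sequences of the crowded regions themselves are not shown, because no genome sequence of mm9, the build of the track, was used here. A nearby view comes from promoters in the RefSeq table (GRCm38.p6) of genes that lie, in gene order, between or at landmark genes of the same crowded bin, as described below. Of 79 such genes, 64 had a promoter listed, with 80 promoters in all. The 250 bases before each start were searched on both strands for a core of the CTCF motif with 8 fixed letters, CCA, then 2 bases of any kind, AG, 2 of any kind and GGC. It was found in 4 of the 80 (5%) and in 679 of all 32851 promoters (2.07%), and the median GC content was 58.8% and 52.4%. The 4 promoters belonged to 3 genes, and the 2 of Ehbp1l1 overlap and hold the same match, so it is counted 2 times and there were 3 separate matches. The count over all promoters was not corrected for such overlaps either. The genes are Fxr2, an RNA-binding protein related to the fragile X protein, Nr1d1, a nuclear receptor of the circadian clock, and Ehbp1l1, a protein of membrane trafficking. One promoter of each is shown, 5′ to 3′ on the gene's strand, with the match in capitals. A match is a string of letters and not a measured site. Whether a listed region covers it was not examined, because the builds differ. Fxr2 (chromosome 11, 69632721 to 69632970, plus strand), Nr1d1 (chromosome 11, 98775378 to 98775627, minus strand) and Ehbp1l1 (chromosome 19, 5726280 to 5726529, minus strand) read as follows.
Fxr2: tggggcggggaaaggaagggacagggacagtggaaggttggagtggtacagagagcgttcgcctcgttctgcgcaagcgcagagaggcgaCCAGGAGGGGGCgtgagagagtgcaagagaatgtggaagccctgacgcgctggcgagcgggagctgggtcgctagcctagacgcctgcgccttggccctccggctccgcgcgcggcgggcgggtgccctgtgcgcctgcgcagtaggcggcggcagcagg
Nr1d1: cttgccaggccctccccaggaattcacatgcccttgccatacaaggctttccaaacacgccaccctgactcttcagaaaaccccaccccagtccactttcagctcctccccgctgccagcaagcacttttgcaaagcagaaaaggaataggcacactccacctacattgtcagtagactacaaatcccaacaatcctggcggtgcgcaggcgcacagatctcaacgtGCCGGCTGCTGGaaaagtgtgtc
Ehbp1l1: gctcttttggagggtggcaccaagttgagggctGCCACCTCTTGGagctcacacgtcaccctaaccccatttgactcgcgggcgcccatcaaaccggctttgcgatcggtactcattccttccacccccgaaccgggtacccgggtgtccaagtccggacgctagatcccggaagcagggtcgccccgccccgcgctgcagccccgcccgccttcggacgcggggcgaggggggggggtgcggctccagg

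The crowded bins formed the thin upper end of a continuous range. Over all autosomal bins the median was 15 regions, the mean 20.3 (SD 20.7 across bins), and 337 bins were empty. Bins were counted from the start of each chromosome, and any without assembled sequence were not told apart. Of the crowded bins, 19 held 80 to 89 regions, 10 held 90 to 99 and 9 held 100 or more, while 37 further bins held 70 to 79. The bound of 80 therefore cuts through a slope and not at a gap. Just inside it, 5 bins held 80 regions (from 129000001 on chromosome 4, from 125000001 and 137000001 on chromosome 5, from 47000001 on chromosome 17 and from 4000001 on chromosome 19). A further 3 held 81, from 19000001 on chromosome 7, 78000001 on chromosome 15 and 28000001 on chromosome 17. Just outside it, 7 bins held 79 (from 167000001 on chromosome 2, 134000001 and 149000001 on chromosome 4, 31000001 and 134000001 on chromosome 7, 108000001 on chromosome 8 and 98000001 on chromosome 15). Another 2 held 78, from 135000001 on chromosome 4 and 149000001 on chromosome 5. On the X, which the rule leaves out, no bin held more than 39.

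**Figure D1:**
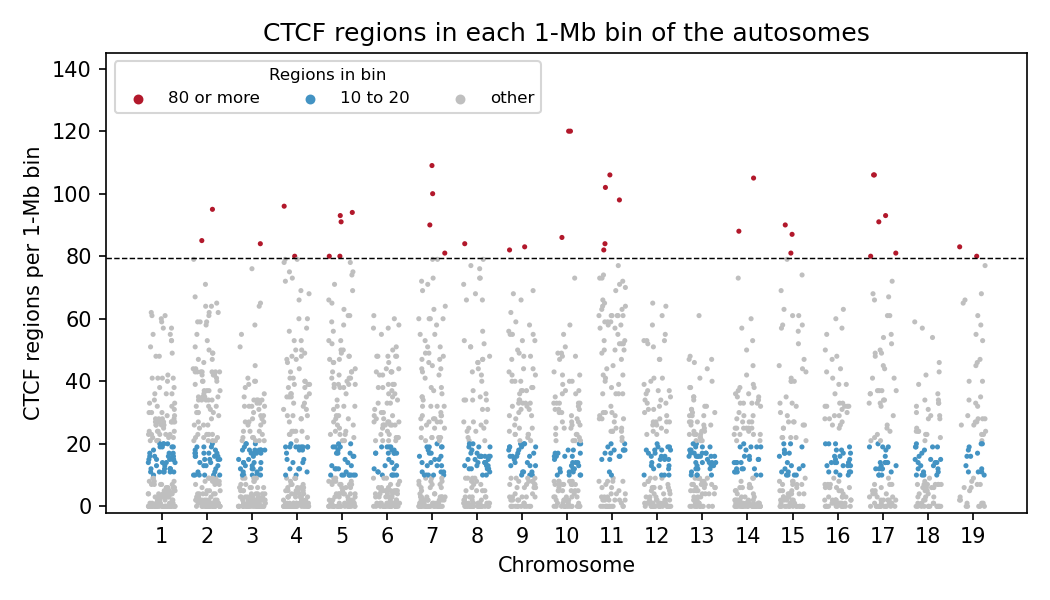
Each point is a 1-Mb bin of an autosome, with the number of CTCF regions on the y axis and points spread sideways within a chromosome for display only. The 38 bins above the dashed line (80 or more, red) lie on 13 chromosomes, and the blue points are the 498 comparison bins.

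Crowded bins occurred on 13 of 19 autosomes. Chromosome 17 had 6, chromosomes 5 and 11 had 5 each, chromosome 7 had 4, chromosomes 10 and 15 had 3 each, chromosomes 2, 4, 9, 14 and 19 had 2 each, and chromosomes 3 and 8 had 1 each. On chromosome 17 they held 23.0% of all its regions, the highest share, and chromosome 10 followed with 12.6%. Chromosomes 1, 6, 12, 13, 16 and 18 had none, and their fullest bins held 59 to 65 regions. These 6 chromosomes had 5.57 to 7.51 protein-coding genes of the GRCm38 table per bin, and the 13 others 6.14 to 13.3, so the ranges overlapped. The overlap came from chromosomes 3, 14 and 15, which had crowded bins with 6.14, 6.81 and 7.46 genes per bin. Chromosome 6, with 7.51, had none. All other chromosomes with crowded bins had more genes per bin than chromosome 6. Divided by position along the chromosome, 10 crowded bins lay in the first of 3 equal parts, which in mouse is the centromeric side, 12 in the middle part and 16 in the last.

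The 2 fullest bins adjoined each other on chromosome 10 (79000001 to 81000000) and held 120 regions each. They covered 56.9 and 59.2 kb, or 5.69% and 5.92% of their length. The bins on either side held 16 and 14 regions, so the count rose and fell within 1 Mb. Chromosome 7 followed with 109 regions from 52000001, covering 45.9 kb. The next 3 bins tied at 106, from 98000001 on chromosome 11 and from 27000001 and 35000001 on chromosome 17. The rest of the 10 fullest were 105 regions from 53000001 on chromosome 14, 102 from 115000001 on chromosome 11, 100 from 29000001 on chromosome 7 and 98 from 69000001 on chromosome 11. These 10 differed in what their regions were like. The median width was 600 bp in the second bin of chromosome 10 and in that of chromosome 14, but 325 bp in the bin from 27000001 on chromosome 17, the lowest of all 38, and 425 bp in the bin from 98000001 on chromosome 11.

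Of the 38 crowded bins, 17 adjoined another crowded bin. The 38 made up 29 runs, of which 21 were single bins, 7 were pairs and 1 was a run of 3. The run of 3 was on chromosome 17 (27000001 to 30000000) with 280 regions, 106, 81 and 93 from low to high coordinates. The pairs held 240 regions on chromosome 10, 197 on chromosome 17 (34000001 to 36000000), 193 on chromosome 14 (53000001 to 55000000), 187 on chromosome 5 (122000001 to 124000000), 180 on chromosome 2 (31000001 to 33000000), 171 on chromosome 15 (78000001 to 80000000) and 163 on chromosome 19 (4000001 to 6000000). Another crowded bin lay within 2 Mb of 23 of the 38, and within 5 Mb of 27. Only the bins of chromosomes 3 and 8 had no other on their chromosome.

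The surroundings of crowded bins were dense as well. The 58 bins that directly flanked a run held a median of 55.5 regions (range 2 to 79), and 44 of them held 40 or more. At 1 Mb from a crowded bin the median was 62 regions (quartiles 44 to 77.5), at 2 Mb 50, at 5 Mb 31 and at 10 Mb 20. Around comparison bins it was 14 at each of these distances. A few edges were abrupt. On chromosome 7, the bin from 19000001 with 81 regions came after one with 2, and the bin from 25000001 with 90 came after one with 6. These were the only flanks under 10, and 4 flanks held 14 to 19 regions, among them both sides of the chromosome 10 pair. These counts use the same measure as the rule and are not independent of it.

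**Figure D2:**
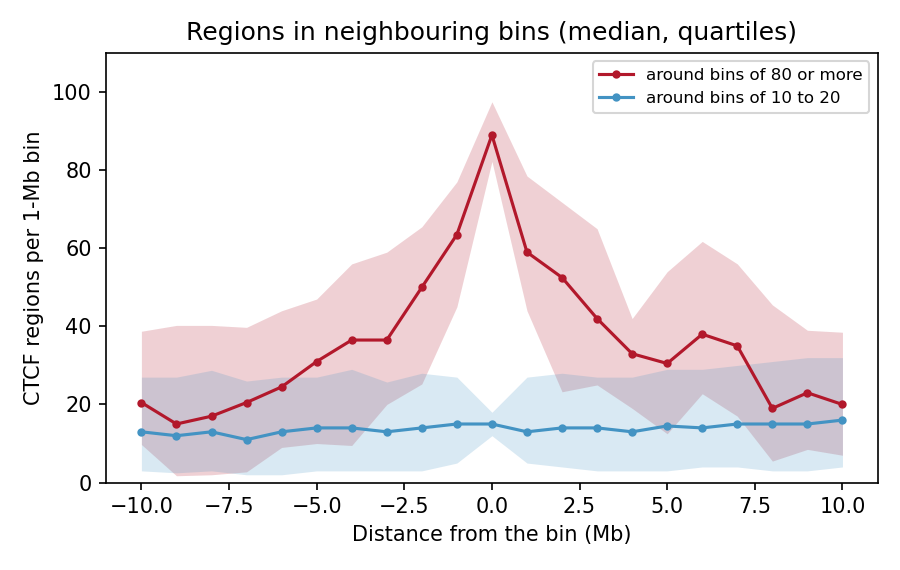
The number of CTCF regions per 1-Mb bin (y axis) is plotted against distance from crowded bins (red) or comparison bins (blue) in Mb, as medians with quartiles shaded. The red median falls from 89 in the bins themselves to 20 at 10 Mb, while the blue median stays between 11 and 16.

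Within crowded bins, neighbouring regions lay a median of 5.51 kb apart (quartiles 1.3 to 13.8 kb, 3438 distances), compared with 23.7 kb in comparison bins (6.03 to 64.4 kb, 6871 distances). A difference in this direction follows from the rule, as do the values per bin and the share of long distances given next, since 80 or more regions in 1 Mb leave little room between them. Per bin, the median distance ran from 3.08 to 9.74 kb over the 38 crowded bins, and all 38 lay under the lower quartile of the comparison bins (15.98 kb). The comparison bins ranged far more widely, from 2.06 to 102 kb, and 37 of 498 were at or below 9.74 kb. Distances over 50 kb made up 2.12% of those in crowded bins and 30.97% of those in comparison bins. The longest gap of a crowded bin was at most 167 kb, in the bin from 117000001 on chromosome 11.

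Relative to its own mean distance, a crowded bin was about as uneven as a comparison bin. The median distance divided by the mean distance was 0.550 (SD 0.102 across 38 bins) in crowded and 0.506 (SD 0.215 across 498) in comparison bins. The coefficient of variation of the distances was 1.31 (SD 0.183) and 1.29 (SD 0.390). Both pairs of values differ by less than the spread between bins. Evenly spaced regions would give a ratio near 1 and a coefficient near 0, so regions were not evenly spaced in either kind of bin. Whether they were less even than regions placed independently of each other was not tested. A comparison bin also has fewer distances than a crowded bin. When regions at most 1000 bp apart were joined before counting, the ratio in crowded bins was 0.678. The most even crowded bins by the ratio were from 28000001 on chromosome 17 (0.817) and the pair on chromosome 14 (0.771 and 0.745), and the least even was from 117000001 on chromosome 11 (0.341).

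Crowding was not made by a single dense spot of 100 kb, but it was often uneven across the megabase. In 33 of 38 crowded bins each of the 10 stretches of 100 kb held at least 1 region, and the other 5 had 8 or 9 occupied. The fullest 100 kb held a median of 15 regions (range 12 to 23), or 17.1% of the bin's regions. The comparison bins, with far fewer regions to place, had a median of 6 stretches occupied and 33.3% of their regions in the fullest. Taking the single fullest stretch of each bin, the densest, on chromosome 10 (the stretch from 79200001), held 23 regions that covered 10.4 kb. Other bins' fullest stretches held 22 regions on chromosome 5 (122700001 to 122800000), and 21 each on chromosome 17 (35300001 to 35400000) and chromosome 7 (19700001 to 19800000). In the last of these bins 25.9% of the regions lay in that stretch, the highest share of any crowded bin.

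A part of the crowding was made of regions close to each other. Distances under 200 bp made up 13.6% of those in crowded bins and 7.71% of those in comparison bins. Of the distances in crowded bins, 22.5% were under 1 kb (exact 95% binomial interval 21.1% to 23.9%), against 11.8% (11.1% to 12.6%) in comparison bins, and the share was above the latter value in 37 of 38 bins. Distances of 1 to 5 kb made up 25.4% and 11.03%. These intervals, and those below, cover counting error only and take regions as independent. A larger share of short distances in crowded bins also follows from the rule, since more regions in 1 Mb lie closer together. The same holds for the larger loss on joining, given next. How much of either goes beyond that was not tested. Joining regions at most 1 kb apart lowered the number of regions in the 38 bins by 22.4%, from 3476 to 2699, and in comparison bins by 11.1%, from 7369 to 6553. The loss per crowded bin ran from 11.1% to 34.9%. After joining, the median distance was 8.6 kb in crowded and 29.6 kb in comparison bins, and 8 of the 38 still reached 80. The bound is sensitive to this. When joining regions at most 100 bp apart before counting, 17 bins reached 80 and 6 of them stood in 3 runs of 2 or more. When leaving out regions of at most 75 bp, 11 bins did, with 2 in 1 such run. The ranking moved less, since the 38 fullest bins after joining at 1 kb included 30 (78.9%) of the original 38, and those without the shortest regions 31 (81.6%).

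**Figure D3:**
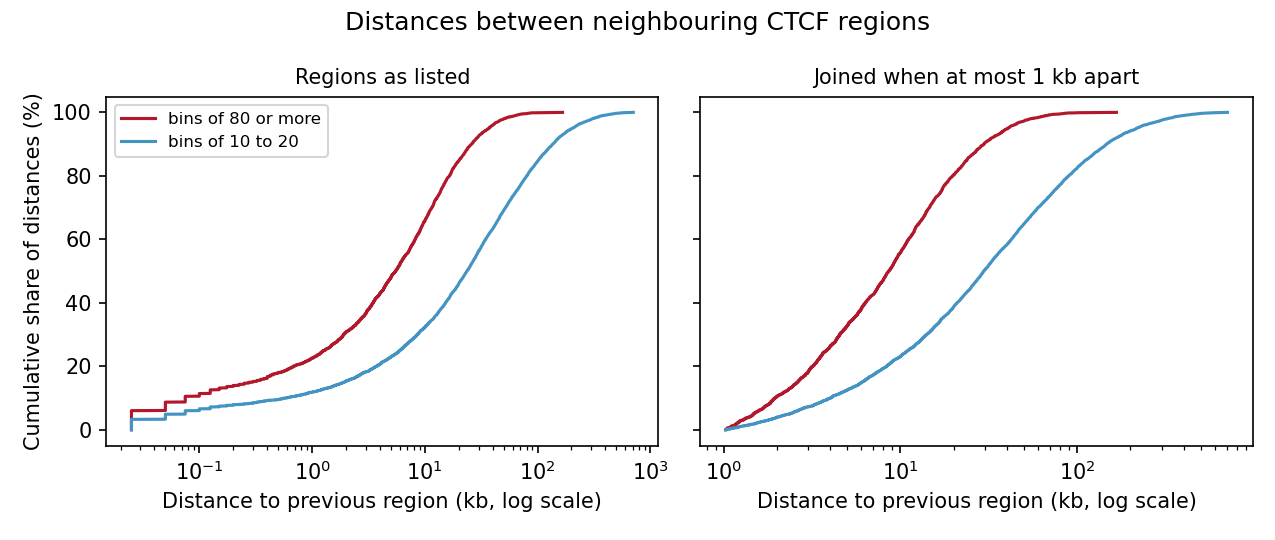
Cumulative share of distances between neighbouring regions of a bin (y axis, %) against distance in kb (log scale), for regions as listed (left) and joined when at most 1 kb apart (right). The red curve of crowded bins lies left of the blue curve of comparison bins in both panels, with medians of 5.51 and 23.7 kb on the left and 8.6 and 29.6 kb on the right.

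Covered sequence followed the number of regions. A crowded bin had a median of 38.7 kb within CTCF regions (range 30.3 to 59.2 kb), or 3.87% of its length, compared with 6.43 kb (2.43 to 11.8 kb) in a comparison bin. The ratio of these medians, 6.03, was close to the ratio of the median counts, 5.93 (89 against 15). The crowded bins together covered 1.54 Mb, 6.93% of all bases covered on the autosomes.

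The typical width was alike in both, but the make-up was not. Widths come in steps of 25 bp and are given below, where classes are meant, in windows. The median width was 525 bp in both kinds of bin, and the mean 443 bp (SD 271 bp across regions) and 440 bp (SD 235 bp). Per bin, the median ran from 325 to 600 bp over crowded bins. Very short regions of at most 75 bp made up 16.5% of crowded regions (15.3% to 17.8%) and 12.2% of comparison regions (11.5% to 13.0%). The share was above the latter value in 32 of 38 crowded bins. Short regions count toward the bound, so the rule itself favours bins with many of them. When they were left out before counting, 11 bins reached the bound. How much of the larger short share goes beyond this selection was not tested. At the other end, regions of 28 to 40 windows (up to 1 kb) made up 9.58% (8.62% to 10.6%) against 4.63% (4.16% to 5.13%), and regions over 1 kb 1.61% (1.22% to 2.09%, 56 regions) against 0.814% (0.622% to 1.05%). Widths of 4 to 22 windows were less frequent, at 38.7% against 45.9%. At least 1 region over 1 kb occurred in 27 of 38 crowded bins and in 56 of 498 comparison bins, which have fewer regions each.

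Short regions were mostly companions of another region. In crowded bins 67.8% of regions of at most 75 bp had another within 200 bp, compared with 16.1% of longer regions, and in comparison bins these shares were 54.7% and 8.07%. Among regions with no other within 1 kb, 2140 in crowded and 5871 in comparison bins, the short share was 6.59% (5.57% to 7.72%) and 6.35% (5.74% to 7.01%), with overlapping intervals. Crowded minus comparison, the short share was 4.30 percentage points over all regions as listed. It was -1.33 and -2.39 points, the opposite direction, when regions at most 500 or 1000 bp apart were joined first and the bins counted anew. Joining absorbs short regions that lie close to another, so a fall of this difference follows from the joining. The share of regions of 23 to 27 windows, around the most frequent width, was 33.6% (32.0% to 35.2%) in crowded against 36.4% (35.3% to 37.5%) in comparison bins over all regions. Among those with none within 1 kb it was 40.9% (38.8% to 43.01%) against 40.2% (38.96% to 41.5%), with overlapping intervals. Regions over 1 kb were more frequent in crowded bins among the latter as well, with 1.82% (1.30% to 2.48%) over 1 kb against 0.835% (0.618% to 1.10%).

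The main width mode lay higher in crowded bins. The most frequent width above 75 bp was 650 bp there and 625 bp in comparison bins. Among regions of 19 to 31 windows, a range around the mode that was chosen after the widths had been plotted, the mean was 616 bp (SD 68.4 bp, 1788 regions) in crowded and 595 bp (SD 61.1 bp, 4076 regions) in comparison bins, a difference of 21.3 bp, which is less than the 25 bp of a single window. The mean in a bin ran from 594 to 635 bp over the 38 crowded bins, all above the median comparison bin (593 bp), and 29 of 38 were above the upper quartile of comparison bins (611 bp). The crowded mean was higher than the comparison mean on each of the 13 chromosomes that had both, by 0.248 bp on chromosome 7 and by 17.9 to 30.6 bp on the others.

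This width rose step by step with the number of regions in a bin. It was 582 bp in bins with 1 to 9 regions, 595 bp with 10 to 20, 604 bp with 21 to 40, 609 bp with 41 to 60, 614 bp with 61 to 79 and 616 bp with 80 or more. Among regions with no other within 1 kb the same steps ran 581, 592, 601, 606, 610 and 613 bp. The difference between crowded and comparison bins in these lone regions was 20.98 bp. The most frequent width itself did not rise step by step. Over all regions it was 625 bp in each class up to 41 to 60 regions and 650 bp in the classes above. Among lone regions it was 650 bp only in bins with 80 or more, and 625 bp in all others. Regions of 650 bp or more made up 26.6% of crowded regions and 15.7% of comparison regions. The file holds no read count or height, so whether wider regions had more reads was not tested.

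**Figure D4:**
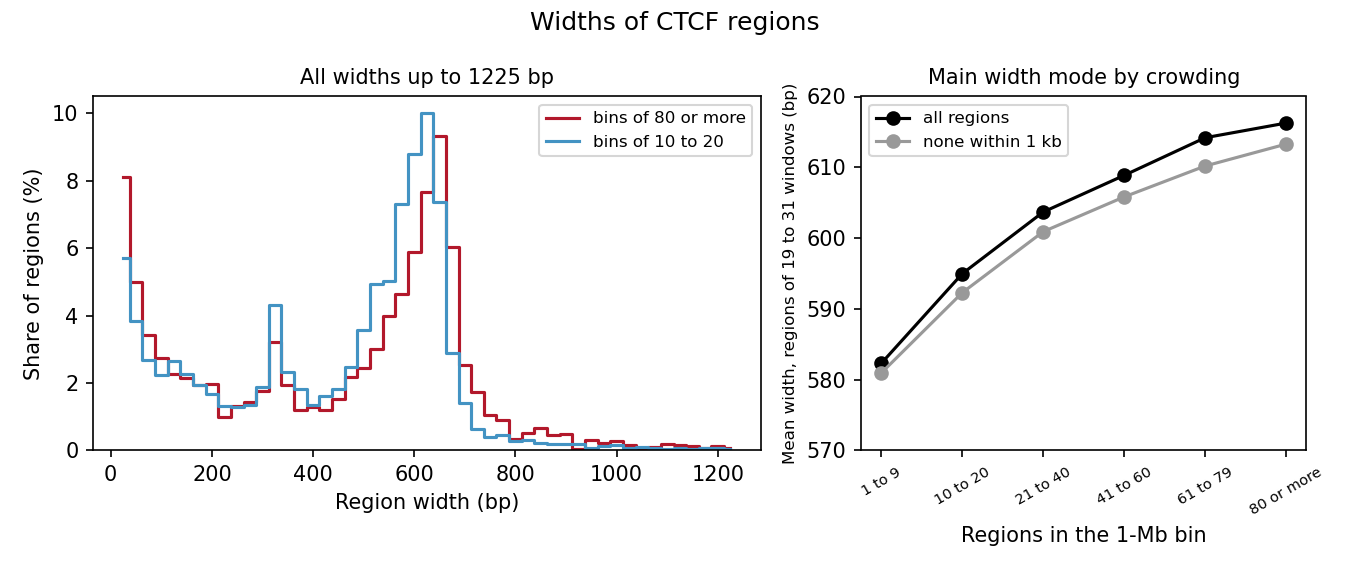
Left, share of regions (y axis, %) by width in steps of 25 bp for crowded bins (red) and comparison bins (blue), with the red peak at 650 bp and the blue at 625 bp. Right, mean width of regions of 19 to 31 windows by the number of regions in their bin, over all regions (black, 582 to 616 bp) and those with none within 1 kb (grey, 581 to 613 bp), on a y axis that does not start at 0.

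The widest members were few and scattered. The widest was 1700 bp on chromosome 5 (137942846 to 137944545). The next were 1600 bp on chromosome 10 (80342953 to 80344552), in the second of the 2 fullest bins, and on chromosome 5 (125750821 to 125752420). Regions of 1550 bp lay on chromosome 15 (76531380 to 76532929) and chromosome 5 (123582346 to 123583895), and regions of 1500 bp on chromosome 17 (34105277 to 34106776) and chromosome 9 (107640226 to 107641725). So 3 of the 7 members of 1500 bp or more were on chromosome 5. The bin from 5000001 on chromosome 19 held 5 regions over 1 kb among its 83, the highest number of any crowded bin.

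To see which genes crowded bins hold, 95 landmark genes were placed in bins by rounded mm9 positions from general knowledge. All 95 were on the same chromosome in the GRCm38 gene table, and the 78 neighbouring pairs on a chromosome stood in the same order there. Order alone cannot show that a gene lies in the right 1-Mb bin, so the placements were not checked to the bin. Of these landmarks, 22 (23.2%) fell in crowded bins and 4 in comparison bins, set against 1.53% of bins and 6.9% of regions in crowded bins. Well-known genes lie where genes are, so these shares are no matched background. The 22 stood in 16 crowded bins, so landmarks that share a bin are not separate observations. The median landmark stood in a bin of 60 regions, and 1 of 95 in a bin with under 10.

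Broadly expressed genes made up most of the landmarks in crowded bins, with 13 of 30, against 22 of 95 (23.2%) over all landmarks. The bins of 120 regions on chromosome 10 held Stk11, a kinase and tumour suppressor, in the first, and Gadd45b, a stress-response gene, and Map2k2, a kinase of the MAP kinase cascade, in the second. Bax, a promoter of cell death, lay in the bin of 109 regions on chromosome 7. Rara, the retinoic acid receptor alpha, was in the bin of 106 on chromosome 11, Grb2, a signalling adaptor, in that of 102, and Trp53, the p53 tumour suppressor, shared the bin of 98 with Polr2a, the largest subunit of RNA polymerase II. Cdkn1a, an inhibitor of cell division, had 93 regions in its bin, Junb, a transcription factor, 84, and Kmt2a, a histone methyltransferase, 82. Rela, a subunit of NF-kappaB, and Malat1, an abundant nuclear RNA, shared a bin of 83.

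Over all groups 22 of 95 landmarks (23.2%) lay in crowded bins, and 1.53% of all bins were crowded. The groups of T lineage genes are given beside these shares, with no test. Among 14 genes of the T cell receptor and co-receptor complex there were 2, Cd3e, a signalling chain of the receptor, with 82 regions in its bin, and Lck, the kinase bound to the co-receptors, with 80. Among 16 thymocyte transcription factors there were 2, Tcf3, which encodes E2A and had 120 in its bin, and Ikzf3, which encodes Aiolos and had 106. Runx3, a factor of the CD8 lineage, and Id3, an inhibitor of E proteins, were just under the bound with 79 and 78. Gata3, a factor of the CD4 lineage, with 18 regions, and Myc, a proto-oncogene that drives growth, with 10, were in comparison bins. Over each group the median was 58 and 45 regions per bin, and for the broadly expressed genes 72. For the genes grouped as restricted to other tissues, given below, it was 59, so the median was no higher in the T lineage groups. The count in crowded bins went the other way, with 0 of 11 of these genes. Whether the groups differ was not tested.

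Among cytokine genes and their responders, 4 of 12 were in crowded bins, against 22 of 95 (23.2%) over all landmarks, and the median was 59.5 regions per bin. Tnf, in the class III part of the major histocompatibility complex, had 106 regions in its bin, Stat3, a transcription factor activated by cytokines, 84, Socs3, its feedback inhibitor, 82, and Il2rb, a receptor chain for interleukin 2, 81. Il7r, the interleukin 7 receptor, was in a comparison bin with 10. Of the 3 antigen receptor landmarks, Trac, the constant gene of the alpha chain, was in a bin of 88. The bins of Trbc1, of the beta chain, and Igkc, of the kappa light chain, held 33 and 29. None of 9 Hox, imprinted or globin genes was in a crowded bin (median 47, range 19 to 63, with Hoxd9 in a comparison bin at 19). None of 11 genes grouped as restricted to other tissues was either (median 59, range 2 to 76, with Sox9 at 2). These groups are small, and whether they differ from the share over all landmarks was not tested.

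**Figure D5:**
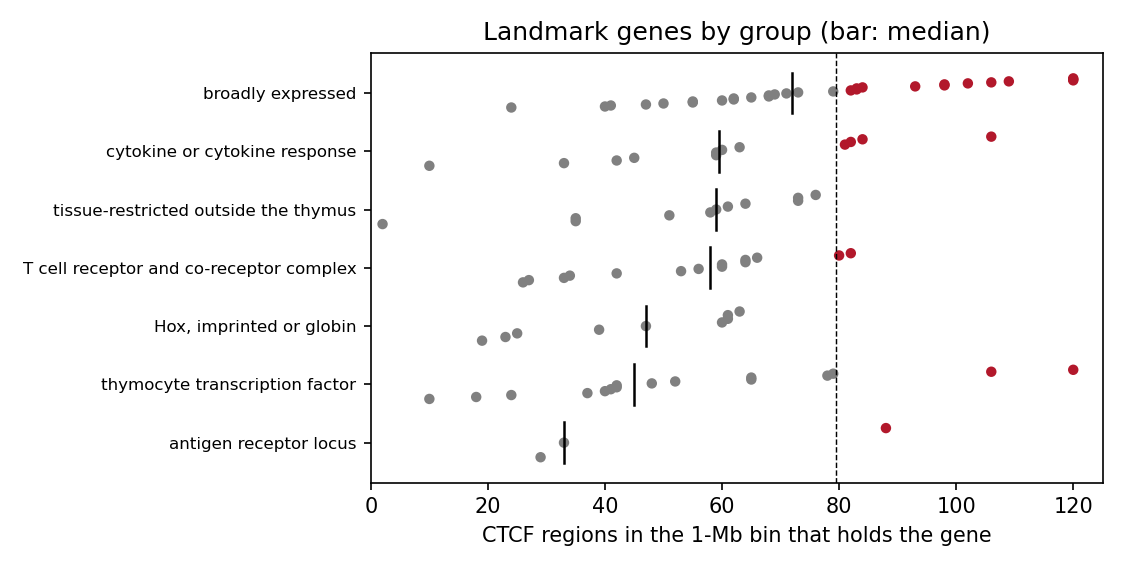
Each point is a landmark gene, placed by the number of CTCF regions in its 1-Mb bin (x axis) and grouped by function (y axis), with the median as a bar and the bound of 80 dashed. The 22 red points are in crowded bins, 13 of them broadly expressed genes.

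In 6 crowded bins, 2 or more landmarks bracketed a stretch whose genes could be read from the GRCm38 order. Between Stk11 and Tcf3 there were 20 protein-coding genes, among them Cirbp, a cold-induced RNA-binding protein, Rps15, a ribosomal protein, and Mbd3, a subunit of the NuRD chromatin complex. Between Ikzf3 and Rara there were 16, with Med24, a Mediator subunit, Thra, a thyroid hormone receptor, and Cdc6, a replication licensing factor. Between Trp53 and Polr2a there were 12, with Eif4a1, a translation initiation helicase, and between Rela and Malat1 9, with Map3k11, a kinase. Gadd45b and Map2k2 enclosed 6, and Kmt2a and Cd3e enclosed 4, including Cd3d and Cd3g, the other CD3 chains. These genes are assigned to a bin by order alone, and no region was assigned to a gene.

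The pair of bins on chromosome 14 covers much of the locus for the alpha and delta chains of the T cell receptor, which holds a long array of V segments that arose by duplication. Its 2 bins held 105 and 88 regions, with median widths of 600 and 587.5 bp, among the highest of the crowded bins, and their ratios of median to mean distance, given above, were the highest after that of a bin on chromosome 17. The bin before the pair held 38 regions and the bin after it 73. Without the pair, the other 36 bins had a median distance of 5.43 kb and a short share 4.39 points above that of comparison bins, close to the 5.51 kb and 4.30 points with it. Chromosome 17 from 34000001 to 36000000, with 91 and 106 regions, lies in the major histocompatibility complex, another cluster of duplicated genes. The median width was 550 bp in both of its bins, and its longest gaps were 82.1 and 59.7 kb. How repeated sequence affected the number of regions in either place was not tested.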

How the data were processed

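The file the authors deposited gives positions only (chromosome, start, end) of 912174 windows, each 25 bp long, within their peaks. It has no count, height or score, so the depth is unknown. Per the submitters' processing notes, the aligner was Bowtie and the build mm9. How peaks were called, and whether the input entered, is not given in the sources used here. There were 0 duplicate windows and 0 of another length. Starts were read as counted from 0 and are printed from 1. Adjoining windows were joined (gap 0 bp), and regions were counted by midpoint in 1-Mb bins up to the last listed position of each autosome. Distances run from the end of a region to the start of the next within a bin. Shares have exact (Clopper-Pearson) 95% intervals. The counting step was tested on simulated data.

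Members, bounds and landmark genes were chosen with earlier results of these data known. The bins named are the 10 fullest, the runs of 2 or more, and those with 78 to 81 regions. The genes named are the landmarks in crowded or comparison bins, and the genes bracketed by them. The bins from 117000001 on chromosome 11, from 25000001 on chromosome 7 and, for its wide regions, from 5000001 on chromosome 19, and Runx3, Id3, Trbc1, Igkc and Sox9, the examples among bracketed genes and the widest members were named after their values were seen. A landmark within 100 kb of a bin edge was to be left unplaced, which applied to 0, so this rule screened out no gene. No expression marker list was used. The RefSeq table (GRCm38.p6) gave symbols, order and promoters only. Figures were drawn with matplotlib 3.10.9 and values computed with pandas 2.3.3, NumPy 2.4.6 and SciPy 1.17.1 under Python 3.11.15.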

Additional observations from a re-analysis of the deposited data

How the results depend on the processing

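Of 190 values recomputed under other settings, 124 stayed within the spread between bins (shares within their counting interval, counts within 1.5 times), 63 moved further and 3 reversed. Joining regions before counting left fewer of them by construction, so fewer bins reached 80. Runs are counted in this section only when they hold 2 or more bins, of which there were 8 in the main result. At 100, 500 and 1000 bp there were 17, 11 and 8 crowded bins with 1535, 962 and 679 regions, 3, 1 and 1 runs, and 6, 2 and 2 bins in runs. The short share in crowded bins was then 7.23%, 4.57% and 3.53%, and its difference from comparison bins 0.330, -1.33 and -2.39 points. Regions over 1 kb made up 3.26%, 7.80% and 13.5%, with differences of 2.08, 4.68 and 7.80 points. Joining itself absorbs short regions beside others and makes wide ones, and more so where neighbours are close. These shares are therefore no independent check on width. At 100 bp the share of 23 to 27 windows was 36.7%. At 500 and 1000 bp the median distance was 7.05 and 7.45 kb and the covered length per bin 47.7 and 53.5 kb, and at 1000 bp the ratio of median to mean distance was 0.678 and the median width 625 bp.

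Without regions of at most 75 bp there were 11 crowded bins with 992 regions, 1 run and 2 bins in it, 39.5% of 23 to 27 windows, and 2.32% over 1 kb (difference 1.45 points). Bounds of 60, 70, 90 and 100 gave 148, 75, 19 and 9 bins with 10876, 6237, 1905 and 974 regions, 33, 18, 3 and 1 runs, and 95, 42, 6 and 2 bins in runs. The bound of 60 had a longest run of 7 bins and 52 landmark genes, and the bound of 100 had 9 landmark genes. Shifting the bins by 500 kb gave differences of 2.90 points for short regions and -1.05 points for 23 to 27 windows, and taking medians over bins gave 6.06 points for short regions. The cause was not tested. Among regions with none within 1 kb the short share was 6.59% (difference 0.236 points), and that of 23 to 27 windows was 40.9%, where the difference reversed to 0.673 points. Taking regions of at least the median width shared 24 of 38 bins, and bins of 500 kb with 40 or more held 5760 regions.

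Leaving out chromosome 11, or the pair on chromosome 14, moved none of the values recomputed beyond that spread, and the width difference in the range of 19 to 31 windows was 18.3 to 24.7 bp throughout. Leaving out the chromosome 14 pair, counting distances across bin edges, taking the fullest bins without the shortest regions, and the range of 19 to 31 windows were chosen after seeing the data. No paired analysis was possible because 1 library was analysed. Peak heights, the input, an mm9 annotation and replicates were not analysed here, and widths are resolved to 25 bp. Coverage depth, read mappability and the caller's threshold could not be set against the number or width of regions.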
